A study of Mus musculus with 23 samples.

Results

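The genes described here are the 37 genes of the mouse mitochondrial genome, taken as every gene of the deposited tables whose symbol starts with mt-. They make up 37 of 47643 genes listed, of which 27483 had at least 1 read, and comprise 13 mRNAs, 2 rRNAs and 22 tRNAs. They were measured in 23 libraries of bulk RNA from mammary tumors of female mice that carried the polyoma middle T oncogene (PyMT) on a C57BL/6 background. In the neutralization experiment, PyMT wildtype (WT) mice received an IgG1 isotype control (n = 5) or a neutralizing antibody against the cytokine IL-38 (anti-IL-38, n = 6). In the second experiment, PyMT WT mice received IgG (WT + IgG, n = 4), and PyMT mice deficient for IL-38, from a C57BL/6N knockout strain crossed to the PyMT strain, received IgG (IL-38 KO + IgG, n = 4) or an antibody that blocks the γδ T-cell receptor (IL-38 KO + anti-γδTCR, n = 4). Every mouse received its antibody weekly over 5 weeks. Treatment began once the first tumor had reached a set size in the neutralization experiment, and at a set age in the second experiment. No library of WT tumors with γδTCR blockade was analysed here, so the effect of the blockade can be seen on the knockout background only. The labels do not say that each library came from a separate mouse, so p-values measure only the spread between these libraries, which may be in part technical.

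The mitochondrial genome is a small circle that is read on both strands into long precursor RNAs. The tRNA genes lie between most of the others, and cutting the tRNAs out of the precursor releases the rRNAs and mRNAs, so that the genes of a strand share their transcription and differ in processing and decay. The mRNAs encode core subunits of the respiratory chain: mt-Nd1 to mt-Nd6 and mt-Nd4l belong to complex I, mt-Cytb to complex III, mt-Co1 to mt-Co3 to complex IV, and mt-Atp6 and mt-Atp8 to the ATP synthase. Where these mRNAs carry a tail, it is added by a mitochondrial poly(A) polymerase. The libraries were made with QuantSeq, a method that primes on poly(A) stretches and reads near the 3′ end of a transcript, so a level here reports molecules with a tail or an internal run of A, and levels of different genes were not compared as molecule numbers.

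The libraries held 6273049 to 15879164 reads on genes. Il1f10, the gene of IL-38, had 0 reads in all 23 libraries, which allows up to 0.189 to 0.478 CPM (reads per 1000000 reads on genes) depending on the library, and the genotype labels could not be checked with it. In 5 libraries, IL-38 KO + IgG replicate 4 and all 4 of IL-38 KO + anti-γδTCR, processed pseudogenes took 1.31% to 1.98% of reads against 0.0943% to 0.191% in the other 18. The same 5 libraries had the fewest reads (6273049 to 8794202 against 10138353 to 15879164) and the most reads on Gm42418, a locus that overlaps ribosomal RNA, at 11.3% to 20.1% against 2.62% to 5.70%. Values that rest on these libraries are therefore given with and without them for some results. Mammary epithelial markers (8 of 8 measured, among them Epcam, Krt8 and Krt18) summed to 1375 to 3665 CPM over the 23 libraries. In bulk samples, fewer cells of a type and less RNA per cell cannot be told apart.

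Several mitochondrial genes have near-identical copies in the nuclear genome, and the sequences decide which of them a short read can tell apart. All 37 transcripts matched the GENCODE M21 annotation (build GRCm38), and 9 of the mRNAs had an annotated nuclear pseudogene with at least 95% identity over at least 100 bases. On chromosome 1, 7 unprocessed pseudogenes between 24611535 and 24616197, on the minus strand, covered mt-Co1 (its last 483 bases), mt-Co2, mt-Atp6, mt-Co3, mt-Nd3, mt-Nd4l and mt-Nd4 (its first 876 of 1378 bases) at over 99% identity. The start of mt-Nd3 (chromosome M, 9459 to 9806, plus strand, 348 bases) is shown beside its copy Gm28438 (chromosome 1, 24612775 to 24613119), which differed over its whole 345 bases by 1 substitution, T3C, counted from 1 at the first base of mt-Nd3; the differing base is in capitals, and the sequences are those of the GENCODE M21 transcripts.
mt-Nd3: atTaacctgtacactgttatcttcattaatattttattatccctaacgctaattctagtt
Gm28438: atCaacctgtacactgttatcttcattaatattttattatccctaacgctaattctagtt
The copy of mt-Co1 (chromosome M, 5328 to 6872, plus strand), Gm29216 (chromosome 1, 24615706 to 24616197), differed over the shared 483 bases by A1066T, shown in capitals in the stretch around it.
mt-Co1: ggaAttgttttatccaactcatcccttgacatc
Gm29216: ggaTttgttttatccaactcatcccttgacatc
The part of mt-Nd4 that the copy Gm28439 lacks is its last 502 bases, which is the end that a 3′ method reads. The sources used here do not say how the counting treated reads that match both places.

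The 3′ ends also differ among the mRNAs themselves. In the reference, 3 of the 13 mRNAs ended in a part of a codon, a single T that becomes a stop codon when the tail is added, and 10 ended in whole codons. The last 30 bases of these 3 are shown with the part codon in capitals, followed by mt-Nd3 and mt-Nd1 with their whole stop codons.
mt-Co3: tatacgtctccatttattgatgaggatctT
mt-Nd4: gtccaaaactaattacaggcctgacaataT
mt-Cytb: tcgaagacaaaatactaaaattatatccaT
mt-Nd3: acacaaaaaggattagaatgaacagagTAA
mt-Nd1: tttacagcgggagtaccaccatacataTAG

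The reads fell on few of the 37 genes. In all, 18349596 reads lay on mitochondrial genes, 54.6% of them on the rRNAs, 45.2% on the mRNAs and 0.210% on the tRNAs. The large-subunit rRNA mt-Rnr2 had a median of 26142 CPM over the 23 libraries and the small-subunit rRNA mt-Rnr1 a median of 10787 CPM. Among the mRNAs, mt-Nd4 took 38.3% of reads, mt-Nd2 21.1%, mt-Nd1 18.1% and mt-Cytb 18.04%. Far lower were mt-Co1 with 2.44%, mt-Nd5 with 1.98% and mt-Nd6, the single mRNA read from the other strand, with 0.0327%. These 7 mRNAs had reads in every library.

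A run of 11 neighbouring genes from mt-Ts1 to mt-Nd4l (chromosome M, 6870 to 10173, 3304 bases) held 1216 reads over all 23 libraries, or 0.00663% of mitochondrial reads, although it spans 21.4% of the mapped length. It contains 6 mRNAs and 5 tRNAs. Of these, mt-Nd3 had 1023 reads and mt-Tr, the arginine tRNA, 160, while mt-Atp6 had 27 in 8 libraries, mt-Co3 5 in 4 and mt-Co2 1 in 1 library. No read lay on mt-Atp8, mt-Nd4l, mt-Ts1, mt-Td, mt-Tk or mt-Tg. The 6 mRNAs of the run are the ones just named, and 5 of them (all but mt-Atp8) have an annotated copy on chromosome 1 over nearly their whole length. The 7 copies on chromosome 1 did not hold the missing reads, with 142 over all libraries and 0 to 19 per library. A more distant copy of mt-Co2 on chromosome 2, Gm13341 (95.9% identity), had 1570 reads, and a copy of mt-Co1 there, Gm13340 (97.6% identity), had 6094 against 202383 on mt-Co1 itself. Whether reads matching several places were dropped in counting was not tested, so the low values of mt-Co2, mt-Co3, mt-Atp6, mt-Nd4l and mt-Nd3 cannot be read as low expression. The last 483 bases of mt-Co1, the end that a 3′ method reads, also match a chromosome 1 copy, so its level carries the same limit. Copies were sought among annotated transcripts only, so the 0 reads of mt-Atp8, mt-Ts1, mt-Td, mt-Tk and mt-Tg cannot be read as absence.

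**Figure D1:**
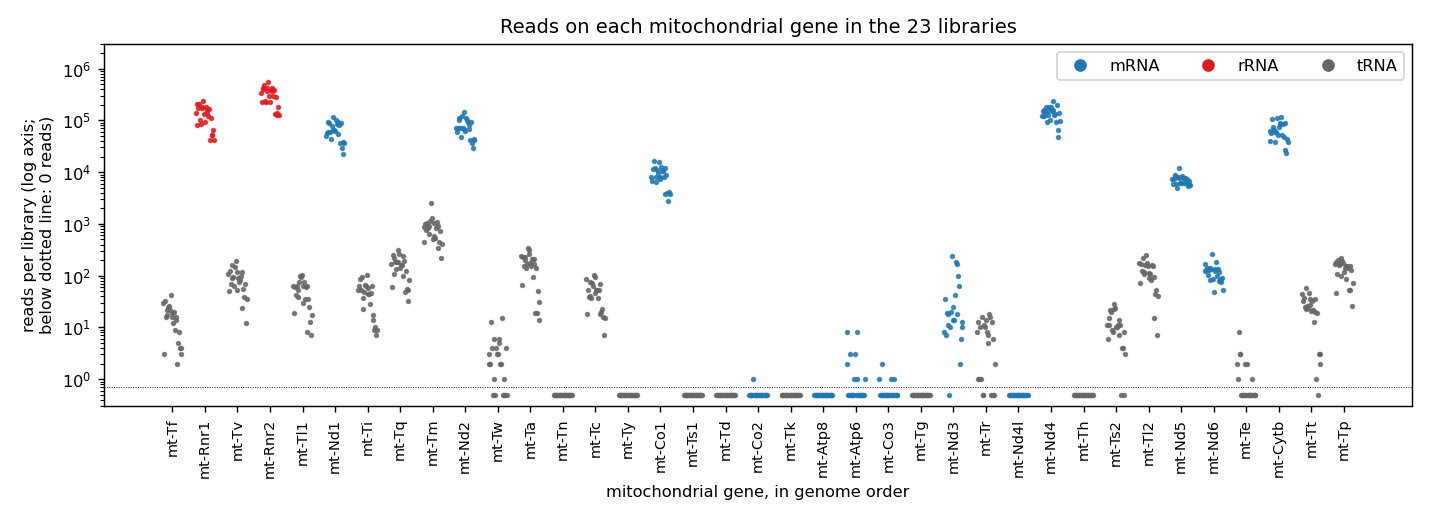
Reads per library (y axis, log scale; points under the dotted line are 0 reads) on each of the 37 mitochondrial genes in genome order (x axis), with 1 point per library and colors for mRNA, rRNA and tRNA. The genes from mt-Ts1 to mt-Nd4l sit at or near 0 except mt-Nd3 and mt-Tr, between mt-Co1 and mt-Nd4, which had 2769 reads or more in every library.

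The tRNAs gave 38539 reads, of which the methionine tRNA mt-Tm alone took 49.5%. The sequence of mt-Tm (chromosome M, 3845 to 3913, plus strand), which lies directly before mt-Nd2, is printed here as the tRNA that leads its class, without any bases added after cutting.
mt-Tm: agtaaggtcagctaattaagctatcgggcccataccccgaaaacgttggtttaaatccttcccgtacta
The alanine tRNA mt-Ta followed with 9.46%, the glutamine tRNA mt-Tq with 8.95%, the proline tRNA mt-Tp with 7.83% and the leucine tRNA mt-Tl2 with 6.98%. Of the 22 tRNAs, 10 had reads in every library and 7 had none: mt-Tn, mt-Ty, mt-Ts1, mt-Td, mt-Tk, mt-Tg and mt-Th. Between these lay mt-Tt with reads in 22 libraries, mt-Ts2 in 21, mt-Tr in 18, mt-Tw in 17 and mt-Te in 8. A count of 0 allows up to 3 reads in a library, and covers counting error only.

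Mitochondrial mRNAs took 1.95% to 4.45% of the reads of a library, and the groups overlapped in every comparison. In IgG1 isotype tumors the share was 2.63%, 3.13%, 3.43%, 3.21% and 2.47%, and in anti-IL-38 tumors it ranged from 2.65% over a median of 3.14% to 3.76%. In WT + IgG tumors it was 2.05%, 2.34%, 2.98% and 3.04%. In IL-38 KO + IgG tumors it was 4.45%, 3.73%, 3.64% and 2.67%. Here 3 of 4 tumors lay above every WT + IgG tumor, and replicate 4 lay within the WT range. With γδTCR blockade the share was 3.48%, 1.95%, 2.11% and 2.54%, which also overlapped IL-38 KO + IgG through its replicate 4. The ratio of group means was 1.39 for IL-38 KO + IgG over WT + IgG, 0.695 for the blockade over IL-38 KO + IgG and 1.07 for anti-IL-38 over isotype control. Shares were described and not tested, since the genes were chosen with earlier results known.

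The rRNA share did not follow the mRNA share in the neutralization experiment. It was 4.75%, 3.98%, 3.99%, 5.08% and 4.66% in isotype control tumors against 2.90% to 4.51% (median 3.98%) in anti-IL-38 tumors, a ratio of means of 0.857 with overlapping groups. WT + IgG tumors held 2.71%, 3.69%, 2.63% and 2.71%, so all 4 lay below all 5 isotype control tumors although both groups are PyMT WT mice with a control antibody. The groups came from separate experiments, received different IgG and began treatment at a set tumor size or at a set age, which cannot be told apart here. IL-38 KO + IgG tumors held 4.42%, 3.02%, 4.95% and 2.05%, and blockade tumors 3.13%, 2.09%, 3.06% and 1.94%. The tRNA share was 0.00426% to 0.0260% over the 23 libraries, and its groups overlapped in every comparison.

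**Figure D2:**
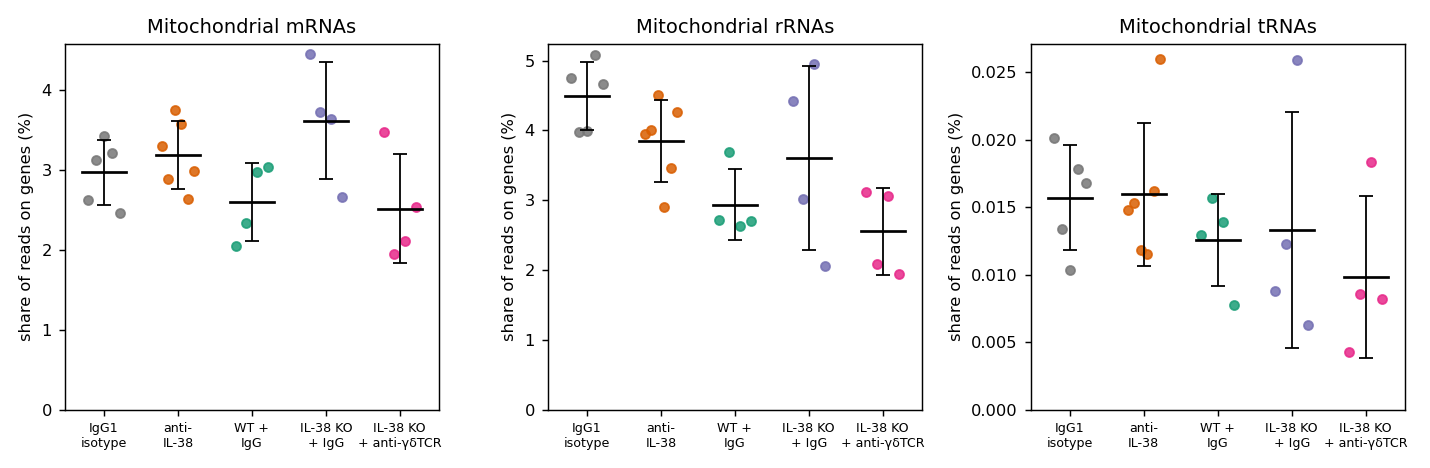
Share of all reads on genes (y axis, percent) that lay on mitochondrial mRNAs, rRNAs and tRNAs in the 5 groups (x axis), with 1 point per library, the mean as a line and the SD as bars. Tumors within a group spread over most of the range between groups, and the rRNA shares of the isotype control tumors (3.98% to 5.08%) lie above those of WT + IgG tumors (2.63% to 3.69%).

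The 5 libraries rich in processed pseudogenes had lower mitochondrial shares than the other 18. Their mRNA share had a median of 2.54% against 3.08%, their rRNA share 2.09% against 3.98% and their tRNA share 0.00818% against 0.0143%. These are shares of all reads on genes, of which Gm42418 took 11.3% to 20.1% in the 5 libraries and 2.62% to 5.70% in the others. The part of this denominator in the lower shares was not tested for the 5 libraries. Since 4 of these 5 are all the blockade libraries, the library difference and the blockade cannot be told apart by leaving them out. The value inside the set can be given: IL-38 KO + IgG replicate 4, with 2.67% on mRNAs and 2.05% on rRNAs, lay within the range of the 4 blockade tumors for both (1.95% to 3.48% and 1.94% to 3.13%). Without replicate 4, the ratio of mean mRNA shares of IL-38 KO + IgG over WT + IgG was 1.52.

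The large-subunit rRNA had 2.06 to 3.15 reads for each read of the small-subunit rRNA, with group medians of 2.31 (isotype control), 2.33 (anti-IL-38), 2.56 (WT + IgG), 2.77 (IL-38 KO + IgG) and 2.77 (IL-38 KO + anti-γδTCR). The rRNAs had 0.764 to 1.89 reads for each mRNA read, with group medians from 0.900 in IL-38 KO + IgG to 1.58 in isotype control tumors. The light-strand product mt-Nd6 was set against mt-Nd5, whose gene overlaps its end on the opposite strand. In WT + IgG tumors it had 28.3, 22.7, 21.3 and 20.6 reads per 1000 mt-Nd5 reads, against 17.1, 10.4, 16.9, 11.5 and 17.99 in isotype control tumors. Anti-IL-38 tumors ranged from 7.87 over 15.8 to 17.2, IL-38 KO + IgG tumors had 23.3, 16.3, 21.1 and 12.7, and blockade tumors had 13.3, 15.3, 13.5 and 9.70. All WT + IgG values lay above all values of the neutralization experiment and of the blockade, and overlapped IL-38 KO + IgG. Among the tRNA reads, mt-Tm took 42.6% to 50.0% in WT + IgG, 47.2% to 62.5% in IL-38 KO + IgG and 56.1% to 63.9% in blockade tumors. The 5 libraries rich in processed pseudogenes are among the 7 highest for this share (56.1% to 63.9%), and the part of library quality in it was not tested.

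**Figure D3:**
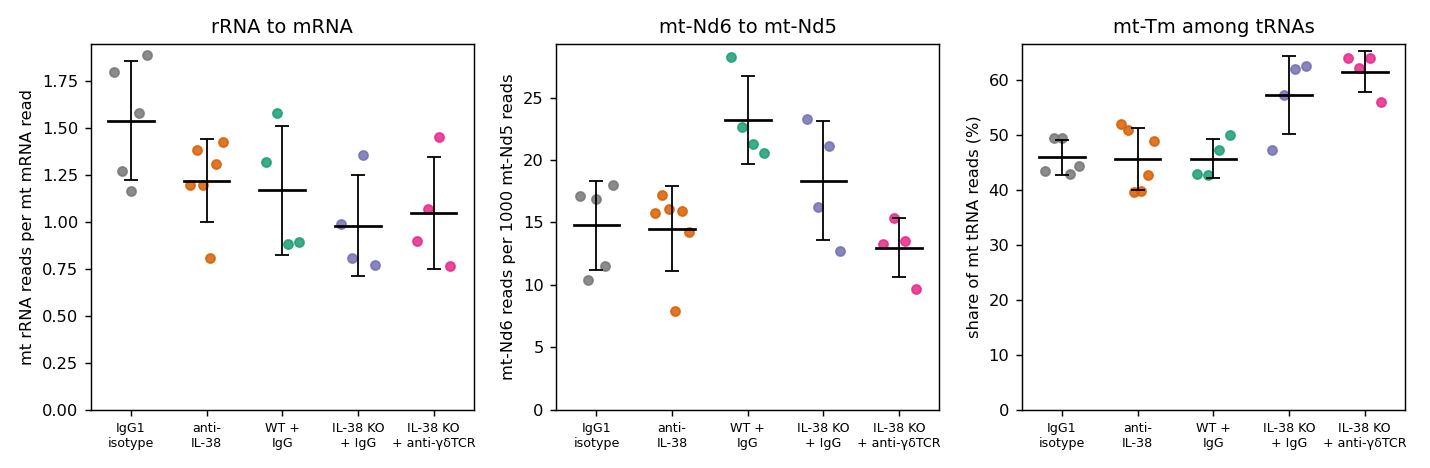
Reads on mitochondrial rRNAs per read on mitochondrial mRNAs, mt-Nd6 reads per 1000 mt-Nd5 reads, and the share of mitochondrial tRNA reads on mt-Tm (y axes) in the 5 groups (x axes), with points for libraries, lines for means and bars for SD. The mt-Nd6 ratio is highest in WT + IgG tumors (20.6 to 28.3) and the mt-Tm share highest in blockade tumors (56.1% to 63.9%), each overlapping IL-38 KO + IgG.

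With IL-38 neutralized, no mitochondrial gene passed the test. Of the 37 genes, 24 passed the filter (a mean normalized count of at least 5), and 0 of these passed an adjusted p of 0.05 in limma, the test fitted over all 16002 genes on log2(normalized count + 1), where the background share of called genes was 0%. At an unadjusted p under 0.05 there were 2, mt-Nd3 and mt-Tr, against 10.5% of all genes tested, while edgeR called 0 members and DESeq2 0, beside a DESeq2 background of 0.469%. No member had groups that did not overlap, where 1.04% of all genes did. The log2 differences of the other 7 tested mRNAs lay between -0.09 for mt-Co1 and 0.25 for mt-Cytb, with standard errors of 0.12 to 0.25, and those of mt-Rnr1 and mt-Rnr2 were -0.22 (SE 0.21) and -0.16 (SE 0.23). For mt-Nd1, mt-Nd2, mt-Nd4, mt-Nd5 and mt-Nd6 the values were 0.17, 0.01, 0.20, 0.01 and -0.03. The largest difference was that of the arginine tRNA mt-Tr, which had 0, 0, 1, 10 and 13 reads in isotype control tumors and 7, 16, 8, 14, 18 and 10 in anti-IL-38 tumors (log2 difference 2.14, SE 0.73, limma adjusted p = 0.420). These groups overlapped, and each value rests on fewer than 20 reads. The mean normalized count of mt-Tr was 13.1 in anti-IL-38 tumors and 4.50 in isotype control tumors, the latter under the filter of 5. It thus passed the filter only through the anti-IL-38 libraries, and its p-value and rank support nothing further.

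In IL-38 KO tumors all 8 tested mRNAs had log2 differences above 0 against WT tumors, and 0 of the 23 tested members passed the threshold in limma (adjusted p of 0.210 to 0.982), where 1 gene of 16563, or 0.00604%, did. At an unadjusted p under 0.05 there were 4 members, mt-Nd3, mt-Cytb, mt-Nd5 and mt-Nd1, against 12.1% of all genes. Without IL-38 KO + IgG replicate 4, which is rich in processed pseudogenes, these were 6 of 23 members and 2265 of 16225 genes. Of the 23 members, 15 then had log2 differences above 0, against 12 with replicate 4, and the member median was 0.19 against 0.07. The mRNA of cytochrome b, mt-Cytb, had 3260, 3157, 4961 and 5414 CPM in WT + IgG tumors and 9153, 6920, 6889 and 5635 CPM in IL-38 KO + IgG tumors. The groups did not overlap, though the lowest knockout tumor stood close to the highest WT tumor; among the 23 members this held for mt-Cytb and mt-Nd3, and among all genes tested for 7.06%. Its log2 difference was 0.81 (SE 0.27, limma adjusted p = 0.295), and DESeq2 called it with an adjusted p of 0.0178, where it called 1.8% of all genes. The complex I mRNAs mt-Nd1, mt-Nd2, mt-Nd4 and mt-Nd5 had log2 differences of 0.58 (SE 0.25), 0.46 (SE 0.26), 0.35 (SE 0.32) and 0.44 (SE 0.17), and mt-Co1 of complex IV had 0.24 (SE 0.23). The light-strand mRNA mt-Nd6 had 0.07 (SE 0.23), which turned to as low as -0.09 when single libraries were left out, and the rRNAs had 0.19 for mt-Rnr1 (SE 0.35) and 0.28 for mt-Rnr2 (SE 0.38). The mRNAs other than mt-Nd3 had a median of 0.44 beside 0.01 over all genes tested. Of the tRNAs, 11 of 13 were lower, with a median of -0.30 and adjusted p of at least 0.417 in limma, in a fit that includes replicate 4. The other tRNAs were mt-Tm, which holds the most tRNA reads, at 0.27 (SE 0.39) and mt-Tr at 0.07 (SE 1.01). The tRNA share had a mean of 0.0133% in IL-38 KO + IgG against 0.0126% in WT + IgG, and a median of 0.0105% against 0.0134%. The members tested share transcripts and libraries and are not independent of each other.

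The mt-Nd5 mRNA had 431, 585, 463 and 521 CPM in WT + IgG tumors, 619, 560, 770 and 712 in IL-38 KO + IgG, and 855, 632, 885 and 633 with γδTCR blockade. It was the single tested mRNA with a log2 difference above 0 under the blockade, at 0.34 (SE 0.21, limma adjusted p = 0.389), and the groups overlapped.

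In IL-38 KO tumors, γδTCR blockade gave log2 differences below 0 for the other 7 tested mRNAs, both rRNAs and all 12 tested tRNAs, none of which passed the test. Some tRNAs stood near 0, such as mt-Tp and mt-Ts2 at -0.01 each. The common direction depended on single libraries. Without IL-38 KO + IgG replicate 3, 8 of 20 tested members lay above 0 and the member median was -0.05, against 1 of 22 and -0.32 with all libraries. Without blockade replicate 1, 6 of 22 lay above 0. Of 22 tested members, 0 passed the threshold in limma, where the background share was 0%, and 1, mt-Nd3, had an unadjusted p under 0.05 against 21.7% of all genes. The log2 differences were -0.61 for mt-Cytb (SE 0.29), -0.49 for mt-Nd1 (SE 0.28), -0.44 for mt-Co1 (SE 0.23), -0.35 for mt-Nd2 (SE 0.29), -0.24 for mt-Nd4 (SE 0.41), -0.14 for mt-Nd6 (SE 0.31, and up to 0.10 without single libraries), -0.29 for mt-Rnr1 (SE 0.41) and -0.27 for mt-Rnr2 (SE 0.49). Scaling to all reads moved the median of all genes to -0.15 and scaling to reads outside mitochondrial genes moved it to -0.18, from 0.02 with the authors' size factors, and mt-Cytb then had -0.79 and -0.82. The mt-Co1 levels were 510, 452, 441 and 432 CPM with blockade and 818, 686, 1003 and 432 CPM without it. The single IL-38 KO + IgG library rich in processed pseudogenes, replicate 4, lay at the low end of the 4 blockade tumors. Without replicate 4, limma called 2 members, mt-Nd3 and mt-Co1 (log2 difference -0.65, adjusted p = 0.0338), but it then called 14.3% of all genes, and the blockade cannot be told apart from that library difference.

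**Figure D4:**
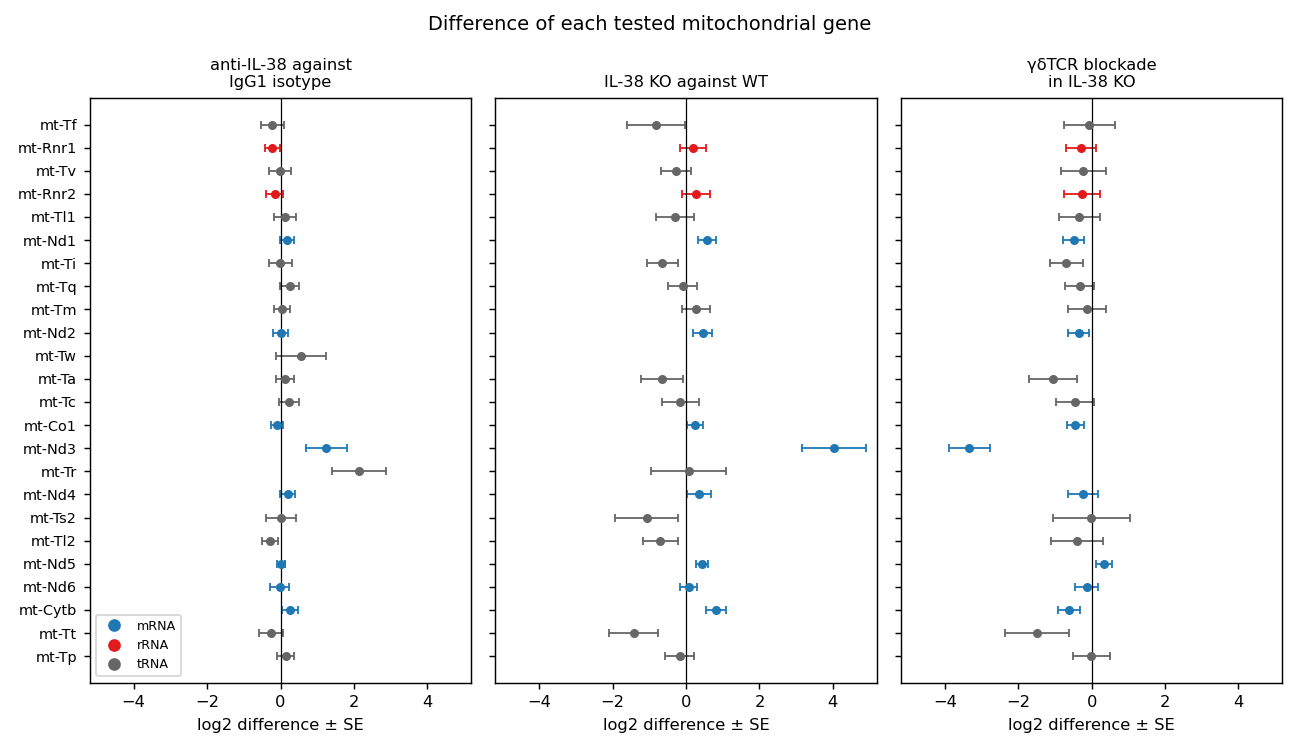
Log2 difference (x axis, on log2(normalized count + 1), limma) of each mitochondrial gene that passed the filter (y axis, genome order) in anti-IL-38 against isotype control, IL-38 KO against WT and γδTCR blockade in IL-38 KO, with points for the estimate and bars for its standard error. Most points lie within 1 of 0, and mt-Nd3 stands apart at 4.03 in the knockout and -3.34 under the blockade.

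The mt-Nd3 mRNA, which encodes a small membrane subunit of complex I, was singled out with its values known, so its levels are described. It had 180, 63, 240 and 99 reads in IL-38 KO + IgG tumors and 0, 8, 11 and 36 in WT + IgG tumors. With γδTCR blockade it had 10, 2, 6 and 13 reads. Every IL-38 KO + IgG tumor lay above every WT + IgG and every blockade tumor. In the neutralization experiment it had 20, 10, 19, 18 and 7 reads in isotype control tumors and 42, 168, 14, 14, 18 and 25 in anti-IL-38 tumors. There, anti-IL-38 replicate 2 reached the range of IL-38 KO + IgG, replicates 1 and 6 lay above the isotype control tumors with 42 and 25 reads, and the other 3 lay within their range. The copy Gm28438 had 18 reads over all 23 libraries and at most 4 in any, and counting it with mt-Nd3 would leave IL-38 KO + IgG above both other groups of its experiment. Reads that match both genes may have been left out of either count, which was not tested.

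Relative to depth, mt-Nd3 had 14.3, 4.86, 15.1 and 11.5 CPM in IL-38 KO + IgG tumors, and at most 3.16 CPM in WT + IgG and 1.48 CPM in blockade tumors. The gap was narrowest between IL-38 KO + IgG replicate 2 and WT + IgG replicate 4, whose 63 reads (95% exact Poisson interval 48.4 to 80.6) and 36 reads (25.2 to 49.8) had overlapping counting intervals. The 0 reads of WT + IgG replicate 1 allow up to 3 reads, or 0.0127 per 1000 reads on the other mitochondrial mRNAs. Per 1000 such reads, mt-Nd3 had 0.320, 0.130, 0.415 and 0.431 in IL-38 KO + IgG tumors, 0, 0.0267, 0.0283 and 0.104 in WT + IgG, and 0.0359, 0.0120, 0.0453 and 0.0582 with blockade. Isotype control tumors ranged from 0.0211 to 0.0590 and anti-IL-38 tumors from 0.0295 over a median of 0.0697 to 0.420. The order of the groups by their median was IL-38 KO + IgG, anti-IL-38, IL-38 KO + anti-γδTCR, isotype control and WT + IgG, and each group overlapped the next in this order. The mean ratio in IL-38 KO + IgG was 8.15 times that in WT + IgG, 17.7 times without WT + IgG replicate 4 and 6.11 times without WT + IgG replicate 1, and the blockade mean was 0.117 times that of IL-38 KO + IgG. Both figures share the 4 IL-38 KO + IgG libraries and are not independent of each other.

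**Figure D5:**
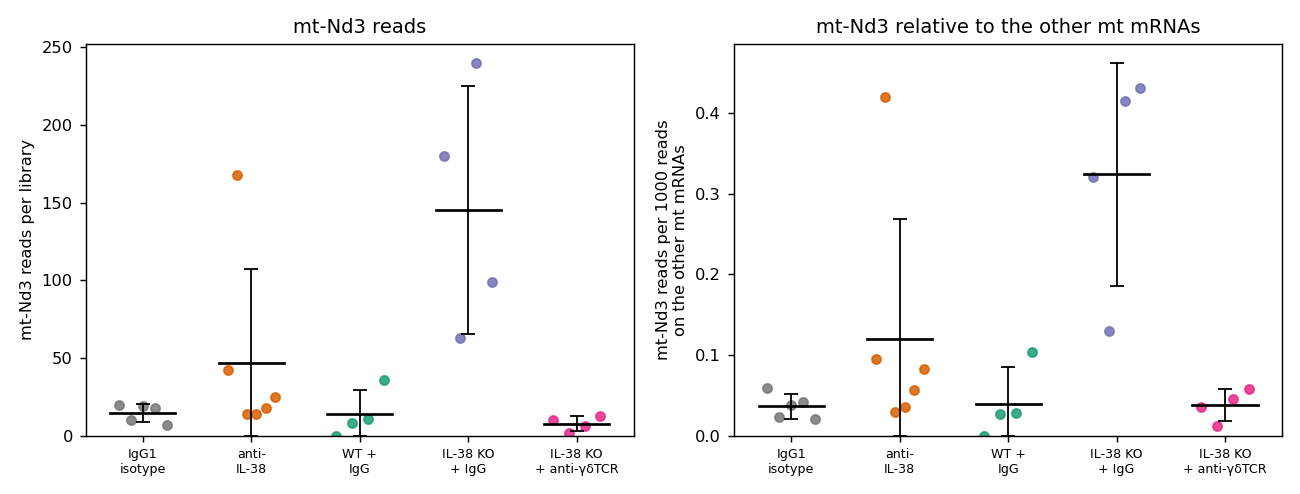
Reads on mt-Nd3 per library (left, y axis) and mt-Nd3 reads per 1000 reads on the other mitochondrial mRNAs (right, y axis) in the 5 groups (x axis), with points for libraries, lines for means and bars for SD cut at 0. The 4 IL-38 KO + IgG tumors (63 to 240 reads) lie above all WT + IgG (0 to 36) and blockade tumors (2 to 13), and 1 anti-IL-38 tumor stands at 168 reads.

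In the fit over all genes, mt-Nd3 had a log2 difference of 4.03 (SE 0.88, limma adjusted p = 0.210) in the knockout, with a mean normalized count of 136 ± 56.0 (SD, n = 4) against 13.5 ± 16.01 (SD, n = 4). Under the blockade it had -3.34 (SE 0.56, limma adjusted p = 0.0657), with 10.1 ± 5.42 (SD, n = 4) against 105 ± 43.0 (SD, n = 4) in a table normalized on its own. Under the blockade DESeq2 called 1 of 22 members, mt-Nd3, and 6.21% of all genes, and limma after scaling to reads outside mitochondrial genes called the same 1 member and 6.06% of all genes. As mt-Nd3 was singled out on these values, its p-values and calls describe the fit and support nothing further. Among genes tested under the blockade, 9.54% had groups that did not overlap, and mt-Nd3 was the single member of 22. Within the libraries rich in processed pseudogenes, IL-38 KO + IgG replicate 4 had 11.5 CPM and the 4 blockade tumors 1.25, 0.234, 0.956 and 1.48 CPM. That set holds only 1 library without the blockade, so the blockade cannot be told apart from the library difference for mt-Nd3. The knockout difference was 3.98 without replicate 4, 3.05 without WT + IgG replicate 1, the library with 0 reads, and 4.80 without WT + IgG replicate 4. It was 3.21 with a pseudocount of 5 and 3.35 in DESeq2. In anti-IL-38 tumors the difference was 1.25 (SE 0.55, limma adjusted p = 0.460) and 0.80 without replicate 2.

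Pooling both ways of inhibiting IL-38 (10 tumors against 9 controls) gave 0 of 23 members in limma, at a background of 0%, and 2 with an unadjusted p under 0.05, mt-Nd3 and mt-Cytb, against 10.5% of genes. The pooled log2 difference was 2.40 for mt-Nd3 (SE 0.60, limma adjusted p = 0.204) and 0.50 for mt-Cytb (SE 0.19, limma adjusted p = 0.377). DESeq2 called 1 member there, mt-Nd3, with 0.428% of genes called. An interaction term, the antibody effect minus the knockout effect, passed the threshold for 0 of 23 members, at a background of 0.00612%. It was -2.78 for mt-Nd3 (SE 1.08, limma adjusted p = 0.590), and 2 members had an unadjusted p under 0.05 against 7.67% of genes.

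Nuclear genes that make, process and use mitochondrial RNA were followed in 5 lists, and 0 members of any list passed the threshold in limma in the 4 comparisons. All 4 blockade libraries are rich in processed pseudogenes. In all these lists the blockade therefore cannot be told apart from that library difference. Of 20 genes for mitochondrial transcription and replication 19 were tested, among them Rnaseh1, an enzyme that removes RNA from RNA-DNA hybrids. Rnaseh1 had mean normalized counts of 48.7 ± 4.64 (SD, n = 4) in IL-38 KO + IgG against 19.7 ± 11.6 (SD, n = 4) in WT + IgG, a log2 difference of 1.56 (SE 0.53, limma adjusted p = 0.310), and -1.56 (SE 0.36, limma adjusted p = 0.0657) under the blockade. Its groups did not overlap in either comparison, as held for 7.06% and 9.54% of all genes, and both rest on the same 4 IL-38 KO + IgG libraries. Tefm, a factor for elongation by the mitochondrial RNA polymerase, had 0.40 and -0.65 in the same comparisons. The list's median was 0.01 in the knockout and -0.12 under the blockade.

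Of the 22 genes for mitochondrial RNA processing, polyadenylation and decay, 4 had an unadjusted p under 0.05 in the knockout, where 12.1% of all genes did. Trmt10c, a subunit of the enzyme that cuts the 5′ ends of mitochondrial tRNAs, had 184 ± 21.4 (SD, n = 4) normalized counts against 121 ± 22.01 (SD, n = 4), a log2 difference of 0.62 (SE 0.19, limma adjusted p = 0.275). Pnpt1, the mitochondrial polynucleotide phosphorylase that degrades RNA, had 0.59 (SE 0.19, limma adjusted p = 0.290). Of the whole list, 16 of 22 had log2 differences below 0 in the knockout (median -0.10) and 18 of 22 under the blockade (median -0.10), where Trmt10c had -0.21 and Pnpt1 -0.11.

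Among 10 regulators of mitochondrial biogenesis, the nuclear receptor Esrra had 0.61 (SE 0.17, limma adjusted p = 0.376) with anti-IL-38 and 0.01 in the knockout, while the transcription factor Yy1 had 0.79 (SE 0.24, limma adjusted p = 0.0884) under the blockade and -0.32 with anti-IL-38. The proteins of the mitochondrial ribosome, which is built on mt-Rnr1 and mt-Rnr2, had 78 of 83 members tested, with medians of -0.09 (anti-IL-38), -0.12 (knockout) and -0.18 (blockade) beside medians of 0.00, 0.01 and 0.02 over all genes. In this list Mrps21 had 2.78 (SE 0.49, limma adjusted p = 0.304) with anti-IL-38, where the groups overlapped, and -1.19 (SE 1.16) in the knockout. Mrpl36 had -0.72 (SE 0.16, limma adjusted p = 0.0657) under the blockade. Of 18 proteins that stand for mitochondrial content, 6 had an unadjusted p under 0.05 in limma under the blockade, where 21.7% of all genes did. The list's median was -0.29, and the blockade cannot be told apart from the library difference there either. Vdac3, a channel of the outer membrane, had -0.83 (SE 0.23, limma adjusted p = 0.0754) there, and the chaperone Hspd1 had -0.41 (SE 0.12, limma adjusted p = 0.401) with anti-IL-38.

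Markers of other cell types moved with some of the groups. Macrophage markers (7 of 7 measured) summed to 655 to 1064 CPM in blockade tumors and 853 to 2095 CPM in IL-38 KO + IgG, against 1930 to 3141 CPM in the other 3 groups. Skeletal muscle, a tissue rich in mitochondria, was represented by 10 of 10 markers, which summed to 27.4 to 505 CPM in IL-38 KO + IgG tumors, 17.9 to 93.1 CPM in WT + IgG and 92.7 to 958 CPM in blockade tumors. The brown adipocyte markers (6 of 6 measured) stayed between 25.8 and 52.4 CPM over all libraries, and the adipocyte markers (7 of 7) were at 310 to 435 CPM in WT + IgG against 56.1 to 288 CPM in IL-38 KO + IgG. Erythroid markers (5 of 5) summed to 39.9 to 996 CPM, fibroblast markers (6 of 6) to at most 9425, endothelial markers (5 of 5) to 51.7 to 151, neutrophil markers (6 of 6) to 7.49 to 166, T-cell markers (7 of 7) to 7.65 to 26.3 and B-cell and plasma-cell markers (6 of 6) to 0.888 to 57.4 CPM over all libraries. No marker of these lists was at 0 in every library. Against WT + IgG, macrophage and adipocyte sums were lower at the median in IL-38 KO + IgG and muscle sums were higher (211 against 67.8 CPM), and their part in the mitochondrial values was not tested.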

How the data were processed

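Total RNA of PyMT tumors was sequenced as QuantSeq 3′ FWD libraries. The submitters' processing notes name STAR, HTSeq, DESeq2 and build GRCm39, and the study used the BlueBee pipeline; the sources used here give no versions. The authors deposited 2 tables of normalized counts, a signal in which each library's gene counts were divided by a size factor, with 19 and 8 libraries, of which 4 are in both. Dividing a column by its smallest nonzero value gave whole reads for 100% of values within 0.0001%. For WT + IgG replicate 1, where 1 read was worth 0.996, this step and rounding give the same number at small counts. They differ at large counts, as for mt-Rnr1 with 84385 recovered reads and a normalized count of 84040. Symbols, positions and sequences came from GENCODE M21 (GRCm38), matched by identifier (47224 of 47643), so positions are on another build than the counts. Nuclear copies were found with BLAST+ 2.17.0 among annotated transcripts, and the genome sequence was not searched.

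The members and lists were chosen with earlier results of these data known. Genes whose normalized counts averaged 5 or more were tested with limma 3.58.1 (R 4.3.3; trend, two-sided) on log2(normalized count + 1), adjusted by Benjamini-Hochberg over all genes, at 0.05. edgeR 4.0.16 and DESeq2 1.42.0 on the recovered reads, other pseudocounts, filters and scalings, a replicate block and leaving out libraries were alternatives. All members past the filter were named, and of each nuclear list the 2 genes with the smallest p. Scripts (Python 3.11.15, pandas 2.3.3) were tested on simulated data. Totals were 6273049 to 15879164 reads per library, and intervals and floors (3 reads) cover counting error only. Same-numbered libraries were weakly correlated, which cannot show that they are unpaired.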

Additional observations from a re-analysis of the deposited data

Results flagged for a closer look

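In groups of 4 to 6 libraries, a library was picked out when its gap to the nearest other was large for the range of its group. Of 80 groups examined 6 had such a library, and chance alone gives about 1 in 20. The rRNA share of WT + IgG replicate 2 was 3.69% with the nearest library at 2.71%. The tRNA share of anti-IL-38 replicate 6 was 0.0260% with the nearest at 0.0162%. For mt-Nd3, anti-IL-38 replicate 2 had 0.420 reads per 1000 reads on the other mitochondrial mRNAs with the nearest at 0.0948, and 12.1 CPM with the nearest at 3.13 CPM. The mt-Nd2 level of WT + IgG replicate 1 was 4190 CPM with the nearest at 5361 CPM, and the mt-Nd4 level of anti-IL-38 replicate 4 was 16717 CPM with the nearest at 11912 CPM. The causes were not tested.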

How the results depend on the processing

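The number of mitochondrial genes called was 0 under every alternative run except these. DESeq2 called 1 in IL-38 KO against WT (mt-Cytb; 1.8% of all genes), 1 under the γδTCR blockade (mt-Nd3; 6.21%) and 1 with both kinds of IL-38 inhibition pooled (mt-Nd3; 0.428%). Scaling to reads outside mitochondrial genes called 1 under the blockade (mt-Nd3; 6.06% of all genes), and leaving out single libraries gave 0 to 2 there, with 2 without IL-38 KO + IgG replicate 4 (14.3% of all genes); the cause was not tested. The mean mt-Nd3 ratio of IL-38 KO + IgG over WT + IgG, 8.15, ranged from 6.11 to 17.7 over left-out libraries and was 17.7 without WT + IgG replicate 4. In the anti-IL-38 comparison small differences changed sign: mt-Nd2 was -0.05 under both scalings to reads and -0.11 to 0.10 over left-out libraries; mt-Nd5 was -0.04 and -0.05 under these scalings and -0.06 to 0.06; mt-Nd6 was 0.02 in DESeq2 and edgeR and -0.15 to 0.15; mt-Co1 was -0.19 to 0.02. Over left-out libraries, mt-Nd6 ran from -0.09 to 0.20 in the knockout and from -0.29 to 0.10 under the blockade, and mt-Rnr1 from -0.05 to 0.48 in the knockout. With the replicate number as a block, 0 mitochondrial genes were called and mt-Nd5 was -0.00017 with anti-IL-38. Correlations of same-numbered libraries were -0.169 to 0.0746. In IL-38 KO against WT they were 0.0229 to 0.0746, and knockout replicates 2 and 4 correlated best with their own number. Such weak correlations over few libraries cannot show that the samples are unpaired. A ratio of mt-Nd3 to mt-Co3 was not run, since mt-Co3 had 5 reads in all. Levels of genes with few reads per library, such as mt-Nd3 in WT + IgG and blockade tumors, are limited by depth.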
